A study of Rattus norvegicus with 8 samples.

Results

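The non-muscle actin cytoskeleton genes Tpm4, Tpm1, Tpm3, Actb, Actg1, Tmsb4x, Tmsb10, Pfn1 and Cfl1 were followed in RNA of rat plasma exosomes, small vesicles that cells release into blood. These 9 genes were selected by name and function, with their TPM (transcripts per 1000000 transcripts) in exercised and sedentary libraries already known, so the contrast below describes them and is no independent support. A row of that name was found for 7 of the 9 among 29541 genes. No row was named Actb or Cfl1, so neither was followed under its own name. A missing name does not show that the mRNA was absent. Copies of Tmsb4x were summed, and all of its reads came from the row Tmsb4x_2, while Tmsb4x_1 was at 0 in every library.

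The RNA came from male Sprague Dawley rats, 9 to 10 weeks old on arrival, with 4 exercised and 4 sedentary libraries labelled a to d in each group. The exercise was a treadmill run of 30 min at 20 m/min that followed a warm-up (10 m/min, 5 min), 5 days a week over 1 month, and blood was taken no later than 30 min after the last run. Sedentary rats were kept in the same room during the sessions. No rat of either group had received alpha-synuclein fibrils. The labels do not say whether plasma of several rats was pooled, and the spread given here is that between libraries.

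Actin exists as monomers and as filaments, and cells shift actin between these states to move, contract and change shape. Beta-actin (Actb) and gamma-actin (Actg1) are the cytoplasmic actins. Tropomyosins are coiled coils that lie along the filament and decide which myosins and severing proteins reach it. The beta-thymosins Tmsb4x and Tmsb10 hold monomers in reserve, profilin (Pfn1) hands monomers to growing filament ends, and cofilin (Cfl1) takes old filaments apart. Platelets, the cell fragments that close wounds, are rich in these proteins, Tmsb4x and Tpm4 among them, and change shape by rapid actin assembly.

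Most of each library was not mRNA. The 10 most abundant RNAs held 98.1 to 99.2% of TPM, and 64776 to 139868 of 10020804 to 31357153 reads per library lay outside them. Nuclear mRNA, meaning the transcripts of nuclear protein-coding genes, came to 1332 to 2317 TPM in exercised and 1020 to 1733 TPM in sedentary libraries. All 7 listed exosome marker genes had reads in at least 1 library, with summed levels of 0.568 to 2.02 TPM in exercised and 0.255 to 0.796 TPM in sedentary libraries. Cd63, the highest by mean, was at 1.03 TPM in exercised a but at 0 in exercised b and c. Sdcbp was at 0.221 to 0.608 TPM in exercised and 0 to 0.0564 TPM in sedentary libraries, while Cd63 and Flot1 overlapped. The members were measured on 600 reads in the exercised and 303 reads in the sedentary group, so counting error is wide for every single value.

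The promoters of Tpm4 and Tmsb4x, the members whose groups did not overlap, are shown with a stretch of the Actg1 promoter for the serum response element it carries. Sequences are from RefSeq on build GRCr8, written 5′ to 3′ on the gene's strand. The first runs over the 250 bases before the Tpm4 start (chr16:17732484-17732733, minus strand), with GGGCGG on either strand in capitals. The next covers the same length before the Tmsb4x start (chrX:30761361-30761610, plus strand). The last holds 50 bases of the Actg1 promoter (chr10:106121012-106121061, minus strand), with the CArG box, the site that serum response factor binds, in capitals.
Tpm4: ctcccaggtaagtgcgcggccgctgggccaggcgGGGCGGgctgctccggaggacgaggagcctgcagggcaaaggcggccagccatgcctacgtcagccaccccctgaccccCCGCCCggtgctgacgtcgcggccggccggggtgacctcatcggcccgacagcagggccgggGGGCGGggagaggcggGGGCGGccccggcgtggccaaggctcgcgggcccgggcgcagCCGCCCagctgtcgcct
Tmsb4x: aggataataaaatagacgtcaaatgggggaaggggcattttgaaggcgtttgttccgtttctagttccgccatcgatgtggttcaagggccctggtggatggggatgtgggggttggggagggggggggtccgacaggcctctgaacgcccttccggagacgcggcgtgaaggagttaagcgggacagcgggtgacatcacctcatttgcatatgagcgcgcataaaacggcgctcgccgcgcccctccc
Actg1: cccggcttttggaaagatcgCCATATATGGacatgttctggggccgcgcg
The letters GGGCGG occurred 5 times before Tpm4, 0 times before Tmsb4x, and in 30.5% of 33469 promoters of that length; of the 7 members, 6 had it in at least 1 promoter, all but Tmsb4x. The CArG box of Actg1 began 90 bases before the start, and 1.5% of all promoters held such a box. No CArG box was found in the upstream 250 bases of the other 6 members, and TATAAA, present in 12.9% of promoters, was found in none of the 7. These matches describe the letters in these windows only.

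The 7 members together were higher in exercised than in sedentary rats in every library. Their summed level was 7.43, 6.16, 7.15 and 4.02 TPM in exercised a to d, against 1.43, 1.48, 1.60 and 2.76 TPM in sedentary a to d. The lowest exercised library was above the highest sedentary one, and the group means of 6.19 ± 1.55 and 1.82 ± 0.635 TPM (SD, n = 4 each) stood at a ratio of 3.41. As a share of nuclear mRNA TPM the sum was 0.351% ± 0.0815 in exercised and 0.141% ± 0.0201 in sedentary libraries (SD, n = 4 each), a ratio of 2.49. Counted in reads, the members took 0.206 to 0.307% of nuclear mRNA reads in exercised libraries and 0.0895 to 0.142% in sedentary ones. The lowest exercised share had an exact (Clopper-Pearson) 95% binomial interval of 0.177 to 0.238%, and the highest sedentary share one of 0.118 to 0.169%; such intervals cover counting error only, and would be too narrow if PCR duplicates remain. A bulk level cannot tell more vesicles of one origin from more RNA per vesicle.

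**Figure D1:**
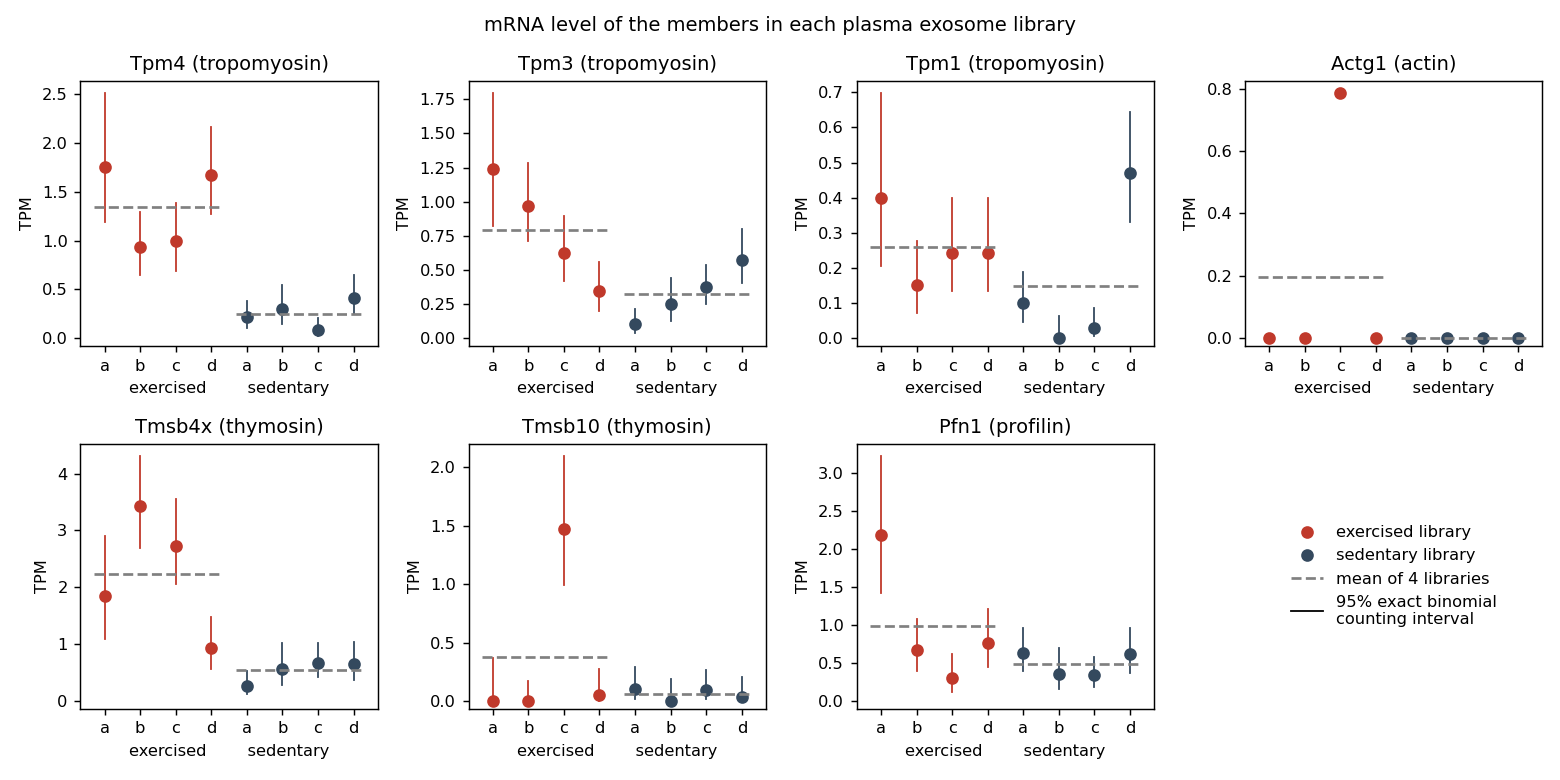
TPM (vertical axis, linear) of each member in the 4 exercised libraries (red, left) and the 4 sedentary libraries (blue, right), with the exact 95% binomial counting interval as a vertical line and the mean of each group dashed; Actg1 has no interval because its reads are known only as a lower limit. Only Tpm4 and Tmsb4x have all exercised points above all sedentary ones, and Tmsb10 and Actg1 rest on exercised c.

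Tpm4, a non-muscle tropomyosin (ENSRNOG00000015496), showed the clearest separation. It was at 1.76, 0.931, 0.996 and 1.67 TPM in exercised a to d, from 30, 35, 35 and 59 reads, against 0.214, 0.298, 0.0881 and 0.414 TPM in sedentary a to d, from 11, 10, 5 and 19 reads. Every exercised library stood above every sedentary one, and the lowest exercised interval (exercised b, 0.649 to 1.30 TPM) just cleared the highest sedentary one (sedentary d, 0.249 to 0.646 TPM). The means were 1.34 ± 0.436 and 0.253 ± 0.137 TPM (SD, n = 4 each), a ratio of 5.29, which ran from 4.35 to 6.70 when single libraries were left out. Among nuclear mRNAs Tpm4 ranked at place 177 in the exercised and 681 in the sedentary group.

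Tpm3, whose gene gives slow muscle and cytoplasmic tropomyosins (ENSRNOG00000017441), had 1.24, 0.967, 0.625 and 0.344 TPM in exercised a to d, against 0.103, 0.248, 0.374 and 0.577 TPM in sedentary a to d. The groups overlapped, since exercised d lay below sedentary c and d. Its means were 0.795 ± 0.392 and 0.325 ± 0.201 TPM (SD, n = 4 each), on 121 and 81 reads, a ratio of 2.44.

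Tpm1, whose gene gives striated and smooth muscle forms beside cytoplasmic ones (ENSRNOG00000018184), was low throughout. It had 0.399, 0.151, 0.242 and 0.242 TPM in exercised a to d, against 0.0992, 0, 0.0300 and 0.469 TPM in sedentary a to d. Sedentary d was the highest of the 8 libraries, and with 38 of the 50 sedentary reads it decided the sedentary mean. The ratio of means was 1.73 over all libraries (0.259 ± 0.103 against 0.150 ± 0.217 TPM, SD, n = 4 each) and 6.0 without sedentary d. The 0 reads of sedentary b allow a level of up to 0.0508 TPM.

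The 3 tropomyosins summed to 1.86 to 3.40 TPM in exercised and 0.416 to 1.46 TPM in sedentary libraries, without overlap on TPM as deposited. Scaled without the 10 most abundant RNAs, the sums overlapped, with exercised c below sedentary d. Tpm4, Tpm1 and Tpm3 were then at 52.6, 12.8 and 33.0 in exercised c, against 29.5, 33.5 and 41.1 in sedentary d. No scaling can change the share of each gene in the sum. Tpm4 took 51.7, 45.4, 53.5 and 74.1% in exercised a to d, against 51.4, 54.6, 17.9 and 28.3% in sedentary a to d. These ranges overlapped, and the means of 56.2% ± 12.4 and 38.0% ± 17.8 (SD, n = 4 each) were about as far apart as the sedentary spread.

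Leaving aside the row Actbl2_2 described below, Tmsb4x, the main monomer-holding thymosin (ENSRNOG00000047931), was the most abundant member in both groups. It was at 1.84, 3.44, 2.73 and 0.941 TPM in exercised a to d, from 18, 74, 55 and 19 reads, against 0.271, 0.572, 0.677 and 0.646 TPM in sedentary a to d, from 8, 11, 22 and 17 reads. All exercised libraries were above all sedentary ones, although the interval of exercised d (0.567 to 1.47 TPM) overlapped that of sedentary d (0.376 to 1.03 TPM). Means of 2.24 ± 1.08 and 0.542 ± 0.185 TPM (SD, n = 4 each) gave a ratio of 4.13, and leaving out single libraries gave 3.39 to 4.93. Tmsb4x stood at place 87 among nuclear mRNAs in the exercised group and at place 309 in the sedentary group. How reads shared with processed copies of this gene were counted is not known here.

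Tmsb10, the related thymosin (ENSRNOG00000064090), was a single-library signal. Exercised c held 30 of its 31 exercised reads, at 1.47 TPM (interval 0.990 to 2.09), with 0, 0 and 0.0488 TPM in exercised a, b and d, against 0.1001, 0, 0.0908 and 0.0374 TPM in sedentary a to d. Outside exercised c no library had more than 3 reads. Its ratio of means was 6.64 with exercised c and 0.285 without it, so no direction can be given. Tmsb10 made up 34.9% of the thymosins in exercised c and 0 to 4.92% in the other exercised libraries, against 0 to 27.0% in sedentary ones.

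Pfn1, profilin 1 (ENSRNOG00000003975), had 2.19, 0.677, 0.298 and 0.765 TPM in exercised a to d, against 0.639, 0.357, 0.343 and 0.619 TPM in sedentary a to d. Exercised a stood far above the rest on 25 reads, and exercised c was the lowest of all 8 libraries. The means of 0.983 ± 0.831 and 0.490 ± 0.162 TPM (SD, n = 4 each) had a ratio of 2.01, and 1.18 without exercised a.

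Actg1, cytoplasmic gamma-actin (ENSRNOG00000053452), had reads in exercised c alone. It stood at 0.785 TPM there, on at least 4 reads, and was listed at 0 in the other 7 libraries, so no ratio is given. Since a gene with reads in 1 library fixes them only up to a common factor, no interval can be set, and the treatment of reads shared between actin genes is not known here either. Rows with related names were looked at after their values were seen. The row named Actbl2_2 had 5.28, 2.64, 2.16 and 3.98 TPM in exercised a to d, against 1.22, 1.07, 1.13 and 2.88 TPM in sedentary a to d, with overlap. Its means of 3.51 TPM in exercised and 1.58 TPM in sedentary libraries were above those of every member. The name is that of an actin, and whether the row holds the reads of Actb was not settled here, so it was not counted as a member. If the row does hold them, it would be the most abundant member in both groups, ahead of Tmsb4x. The count of members followed, their order and their summed level would then change. The row Cfl1l1, not taken for Cfl1, had 0.103 to 1.5 TPM in exercised and 0 to 0.178 TPM in sedentary libraries, again overlapping. With Actbl2_2 added, the summed members had a ratio of 2.86.

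**Figure D2:**
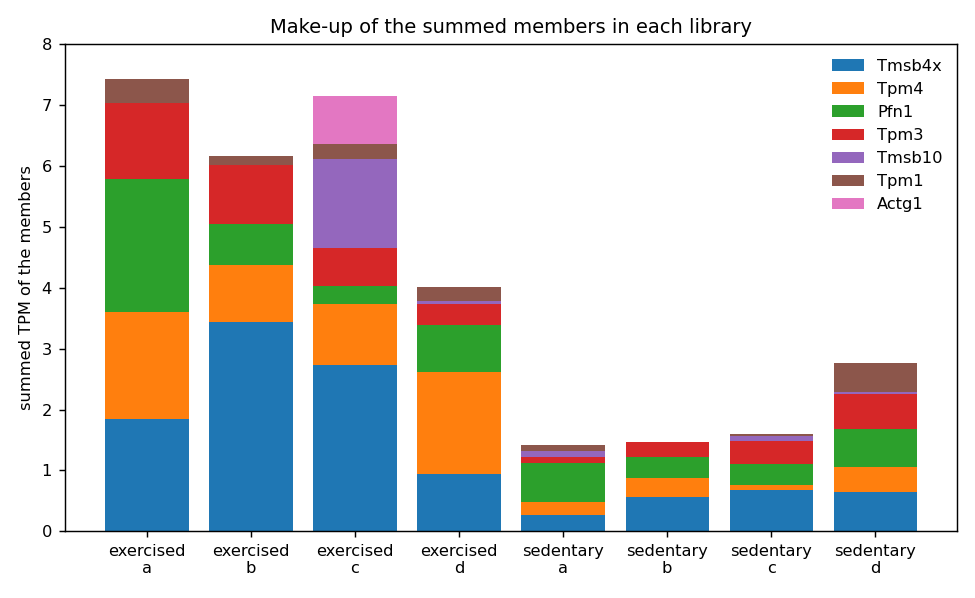
Summed TPM of the members (vertical axis) in each library, exercised a to d on the left and sedentary a to d on the right, with the level of each member stacked in colour. The 4 exercised bars reach 4.02 to 7.43 TPM and the 4 sedentary bars 1.43 to 2.76 TPM, and each exercised bar is made up differently.

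Without the row Actbl2_2, the order of the members by mean TPM was Tmsb4x, Tpm4, Pfn1, Tpm3, Tmsb10, Tpm1 and Actg1 in the exercised group. In the sedentary group the order was Tmsb4x, Pfn1, Tpm3, Tpm4, Tpm1, Tmsb10 and Actg1. None of the 6 steps between neighbours in the exercised order exceeded the larger SD of the pair, and 1 of 6 in the sedentary order did, that from Tmsb10 to Actg1, which was at 0. Tpm4 thus had a higher place in exercised libraries, but its steps to the genes beside it lay within the spread. The libraries also led with different members, Tmsb4x in exercised b and c, Pfn1 in exercised a and Tpm4 in exercised d. Tpm4 and Tmsb4x together made up 48.4 to 70.9% of the sum in exercised and 34.0 to 59.0% in sedentary libraries. Without both, the other members still had a ratio of 2.56, with overlapping groups (1.40 to 3.83 against 0.605 to 1.70 TPM).

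Across the table, limma was run on genes averaging at least 1 TPM, as log2(TPM + 1), a scale that understates the change of low genes. Of 508 such genes, 0 passed an adjusted p under 0.05, which is 0% (43 higher, or 8.46%, and 11 lower at an unadjusted p under 0.05), and the voom fit on recovered reads also called 0 (42 higher and 14 lower unadjusted). Tmsb4x was the 1 member in this set, at a log2 fold change of 1.01 ± 0.37 (SE), where the median of the 508 genes was 0.40, and it was not called. A lower limit of 0.1 TPM let in 3069 genes, with 0 called and 102 higher at an unadjusted p under 0.05 (3.32%, with 53 lower). It took in 6 of the 7 members, of which 0 were called. There the log2 fold changes were 1.01 ± 0.28 (SE) for Tmsb4x, 0.89 ± 0.19 for Tpm4, 0.42 ± 0.21 for Tpm3, 0.34 ± 0.28 for Pfn1, 0.26 ± 0.28 for Tmsb10 and 0.14 ± 0.15 for Tpm1, where the median of the 3069 genes was 0.10. Tmsb10 turned negative under 2 of the scalings. The 2 members without overlap compare with 86 of 3069 genes (2.8%) that were higher in this way and 39 that were lower, a comparison from which nothing is read because the members were chosen on this contrast.

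Since 10 RNAs hold nearly all TPM, the ratios depend on what each library is scaled to. Scaled without these RNAs, the sum of the members had a ratio of 2.17, and scaled by median ratios one of 2.73. Among the members, Tpm4 alone had groups that did not overlap under any of the 4 scalings, with ratios of 5.29 as deposited, 3.90 without the 10 RNAs, 4.13 over nuclear mRNA and 4.41 by median ratios. The ratios of Tmsb4x in the same order were 4.13, 2.46, 2.87 and 3.16, and its groups overlapped without the 10 RNAs. Pfn1 came down to 1.30 without the 10 RNAs and Tpm3 to 1.53, with overlap under each scaling.

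**Figure D3:**
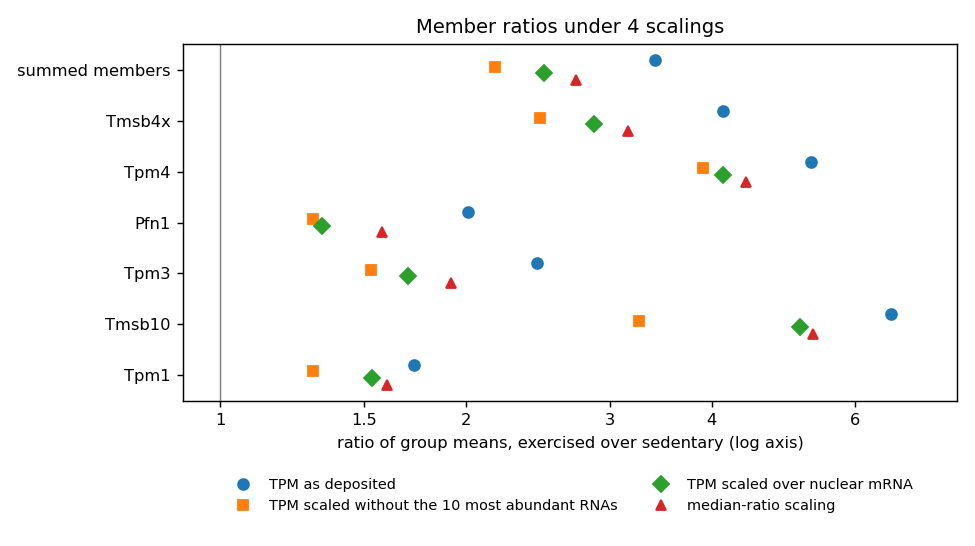
Ratio of group means, exercised over sedentary (horizontal log axis), for the summed members and 6 members under 4 scalings (symbols); Actg1 is left out because all sedentary libraries were at 0. All points lie right of 1, and the deposited TPM (circles) give the highest ratio for each item, 3.41 for the sum against 2.17 without the 10 most abundant RNAs.

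The summed platelet list was also higher in exercised rats, though most of its genes did not separate the groups. The platelet list, 17 genes of which 15 had reads, summed to 13, 7.21, 15.5 and 7.26 TPM in exercised a to d, against 0.922, 2.55, 1.73 and 3.56 TPM in sedentary a to d, also without overlap. Its gene of highest mean level was Pf4, a chemokine of platelet granules, at 12.1, 3.31, 6.20 and 5.63 TPM in exercised a to d, against 0.679, 1.51, 1.23 and 2.03 TPM in sedentary a to d. Pf4 averaged 6.80 of 10.7 TPM in the exercised and 1.36 of 2.19 TPM in the sedentary group. It was the 1 listed gene with every exercised library above every sedentary one. Clec1b, a platelet receptor, reached 6.51 TPM in exercised c and at most 0.140 TPM elsewhere, and Tubb1, the platelet beta-tubulin, overlapped between groups (0.413 to 3.03 against 0.0514 to 0.720 TPM). The defining markers Gp1bb and Selp were at 0 in all 8 libraries, and Ppbp in 7. Per TPM of the platelet list, the members stood at 0.462 to 0.855 in exercised and 0.578 to 1.55 in sedentary libraries, overlapping, with means of 0.610 ± 0.170 and 0.957 ± 0.418 (SD, n = 4 each). The part of platelet RNA in the members' difference was not tested.

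**Figure D4:**
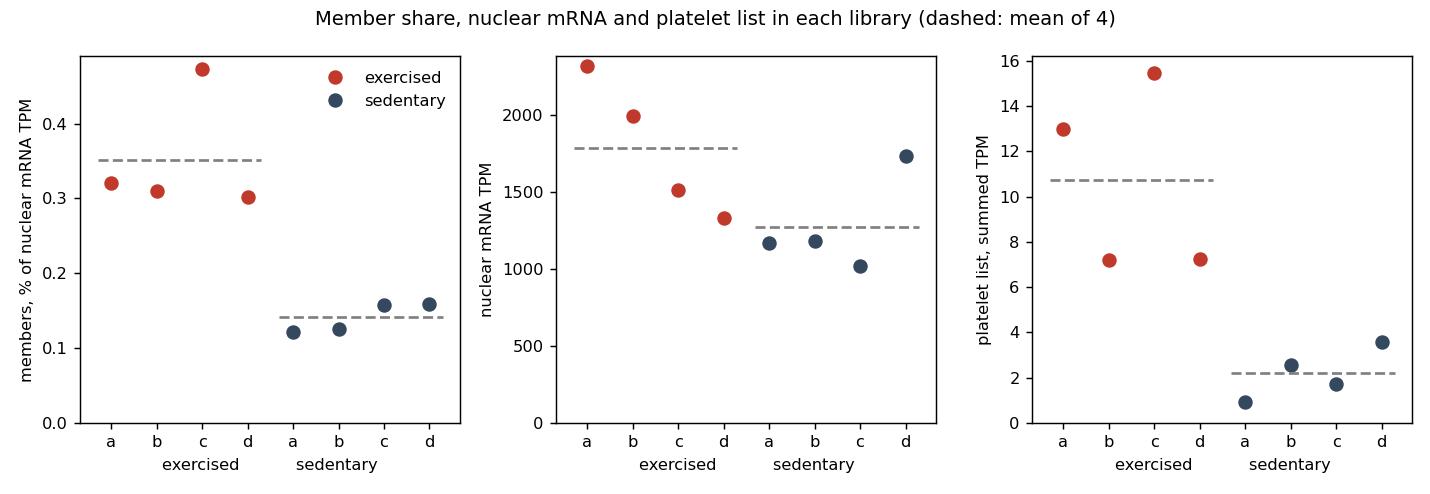
Share of the members in nuclear mRNA TPM (left, percent), nuclear mRNA TPM (middle) and summed TPM of the platelet list (right) in exercised a to d (red) and sedentary a to d (blue), with group means dashed. The member share and the platelet list separate the groups (0.301 to 0.473% against 0.122 to 0.159%, and 7.21 to 15.5 against 0.922 to 3.56 TPM), while nuclear mRNA overlaps.

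The other cell type lists overlapped between groups. Leukocyte markers (19 of 20 genes with reads) were at 0.0648, 0.303, 57.1 and 83.2 TPM in exercised a to d, against 1.15 to 6.80 TPM in sedentary libraries, and in exercised c and d most of it came from the defensins RatNP-3b and Np4. Ptprc, the surface phosphatase found on all leukocytes, was named after its values were seen, and was at 0.0648, 0.0883, 0.0997 and 0.0262 TPM in exercised a to d, against 0, 0, 0.00650 and 0.0120 TPM in sedentary a to d, without overlap. Erythroid markers (13 of 16), led by the globins Hba-a2 and Hba-a3 and the chaperone Ahsp, ran from 32.4 to 138.0 TPM in exercised and 11.5 to 77.6 TPM in sedentary libraries. Skeletal and heart muscle markers (19 of 24), with the heart genes Tnnt2, Myh6 and Myh7 in the lead, lay at 1.90 to 18.6 against 2.95 to 10.9 TPM. Smooth muscle markers (9 of 9), led by Des, were at 0.281 to 3.25 against 0.306 to 0.581 TPM, and endothelial markers (10 of 10), led by Vwf, at 0.412 to 1.42 against 0.420 to 0.694 TPM. Liver markers (11 of 11), led by the plasma carriers Ttr, Hpx and Gc, had the lower mean in exercised rats, with 0.490 to 55.8 TPM in exercised and 14.7 to 89.1 TPM in sedentary libraries. Their part in the levels of the members was not tested.

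The rest of the actin machinery, a list of 71 genes in 6 roles of which 69 had a row, gave few separate groups. At least 0.1 TPM on average was reached by 36 genes, of which 0 were called by limma and 3 were higher at an unadjusted p under 0.05 (Actr3, Myl9 and Tagln2), beside 3.32% of all 3069 genes. Their median log2 fold change was 0.22, beside 0.10 over all genes. The sign was positive for 35 of the 36, beside 66.9% of all genes, but for 24 of the 36 once the 10 most abundant RNAs were left out of the scaling, beside 43.2%. In every exercised library above every sedentary one stood 3 of the 36, again beside 2.8% of all genes, and none lay wholly below. Naming them was a choice made after their values were seen.

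Actr3, a core subunit of the Arp2/3 complex that starts branched filaments, was at 0.565, 0.680, 0.420 and 0.242 TPM in exercised a to d, against 0.0220, 0.102, 0.0300 and 0.0989 TPM in sedentary a to d, on 103 and 19 reads. Myl9, a regulatory light chain of non-muscle and smooth muscle myosin II, was at 0.650, 0.355, 1.20 and 0.441 TPM in exercised a to d, against 0.0862, 0.0662, 0 and 0.193 TPM in sedentary a to d. Tln1, talin, which ties integrins to actin, was at 0.262 to 0.363 TPM in exercised libraries and 0.0354 to 0.155 TPM in sedentary ones. Tagln2, a filament-binding transgelin, did overlap, with 1.94, 1.23, 1.06 and 0.0752 TPM in exercised a to d, against 0.0395 to 0.280 TPM in sedentary libraries. For Actr3 the log2 fold change was 0.47 ± 0.14 (SE), for Myl9 0.59 ± 0.18, for Tagln2 0.79 ± 0.29 and for Tln1 0.24 ± 0.11, and none was called.

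By role, the muscle actins and Tpm2 were scarce. Actc1, cardiac actin, reached 1.94 TPM in exercised b and at most 0.491 TPM in any other library, and Actg2 and Tpm2 stayed at or under 0.223 TPM in all 8. The sum of these muscle forms was 0.215 to 2.13 TPM in exercised and 0.245 to 0.693 TPM in sedentary libraries. Genes of monomer binding and filament turnover (5 of 14 listed reached the limit, median log2 fold change 0.21) were led by the coronins Coro1b and Coro1a and by Cap1, and 1 library, exercised b, held 1.38 TPM of Coro1b and 0.708 TPM of Cap1.

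Of the nucleation and elongation genes, 6 of 16 reached the limit, with a median of 0.15. All 16 together summed to 1.66 to 2.77 TPM in exercised and 0.503 to 1.65 TPM in sedentary libraries. On TPM as deposited, the lowest exercised sum (1.662 TPM) barely exceeded the highest sedentary one (1.655 TPM), so no separation is read from it. Beside Actr3 these genes were led by Arpc2 and Arpc1a, also subunits of the Arp2/3 complex. Both overlapped, with means of 0.443 against 0.297 TPM and of 0.235 against 0.179 TPM. Among capping and severing genes (4 of 10, median 0.33) the severing protein gelsolin (Gsn) and adducin (Add1) were carried by exercised a, at 4.07 and 2.53 TPM there, and the capping subunit Capzb by exercised b, at 0.685 TPM.

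Crosslinking and membrane linkage genes (14 of 20, median 0.24) were led by Fermt3, kindlin of blood cells, at 1.42, 0.196, 0.600 and 2.51 TPM in exercised a to d, against 0.143, 0.0942, 0.445 and 0.252 TPM in sedentary a to d. The spectrin Sptbn1 and the linker moesin (Msn) also overlapped. Non-muscle myosin II (5 of 6, median 0.42) had Myh9, its heavy chain, at 1.55, 1.82, 1.65 and 1.29 TPM in exercised a to d, against 0.450, 1.07, 0.682 and 1.86 TPM in sedentary a to d. Sedentary d was the highest library for Myh9, and the light chains Myl6 and Myl12a overlapped as well.

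**Figure D5:**
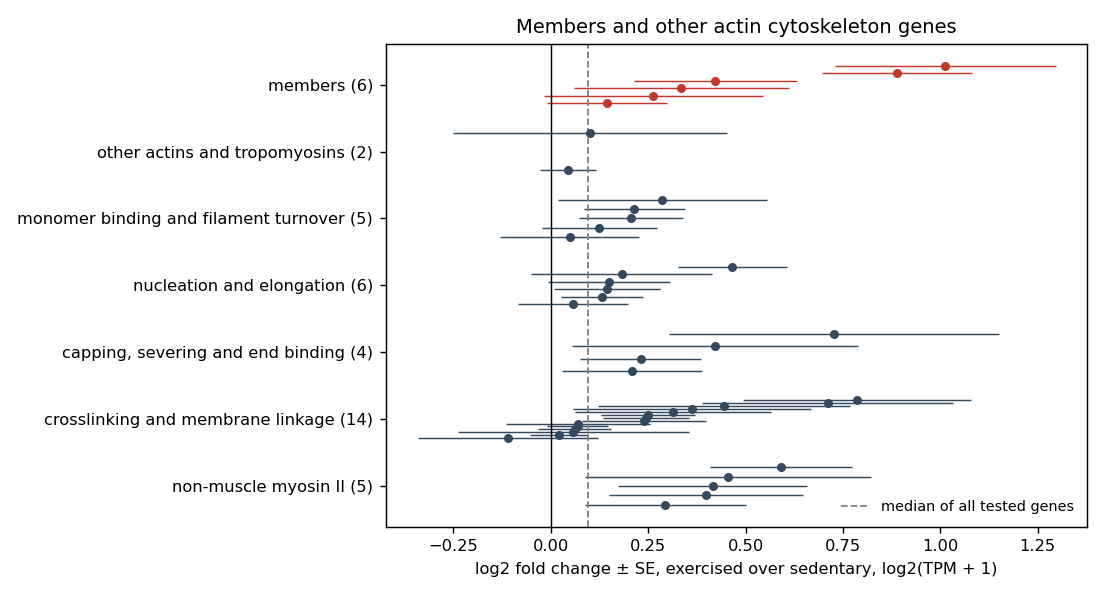
Log2 fold change ± SE on log2(TPM + 1), exercised over sedentary (horizontal axis), of the 6 members (red, top) and 36 other actin cytoskeleton genes (blue, by role) with a mean of at least 0.1 TPM; the dashed line is the median of all 3069 genes, 0.10. Tmsb4x at 1.01 and Tpm4 at 0.89 lie to the right of every other gene shown, and none of the genes passed an adjusted p under 0.05. This order belongs to the scale, which understates the change of low genes. By ratio of group means Tagln2 (7.96), Myl9 (7.66) and Actr3 (7.56), among others, stood above Tpm4 (5.29) and Tmsb4x (4.13). Others, such as Myh9 (1.55), stood below both.

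The 5 genes whose profile over the 8 libraries lay closest to that of the summed members were Tubb5, Hnrnpu, Rpl24, Ppp1r12a and Ppy, out of 507 compared. Likeness was measured as the root mean square difference of log2(TPM + 1), centred on its mean, which was 0.33 for Tubb5, 0.40 for Hnrnpu and Rpl24, 0.41 for Ppp1r12a and 0.42 for Ppy, where the median gene was at 0.94. Tubb5, a beta-tubulin, had 1.51, 2.49, 1.77 and 1.19 TPM in exercised a to d, against 0.167, 0.512, 0.454 and 0.444 TPM in sedentary a to d. Ppp1r12a, the subunit that directs a phosphatase to myosin, had 2.76, 4.01, 2.27 and 1.96 TPM in exercised a to d, against 0.275, 1.57, 0.895 and 1.5 TPM in sedentary a to d. All points share libraries and their scaling, so the likeness is a description.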

How the data were processed

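The authors deposited 1 table of TPM for 29541 genes in 8 libraries, each summing to 1000000. Exosomes were precipitated from 1.5 mL of plasma with a kit, and stranded libraries were made from 1 ng of RNA without fragmentation. A first amplification of 10 PCR cycles was followed by depletion of ribosomal cDNA and a further amplification, whose cycles are not stated. Rat build mRatBN7.2 is named in the submitters' processing notes; for aligner, counter, annotation and RNA test, names were not given in the sources used here. As TPM divides reads by gene length and fixes the total, a value moves with the most abundant RNAs.

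Whole reads and gene lengths were recovered as the smallest whole numbers that give a gene's values (71860 of 71860 values, tolerance 1e-06 reads; 0 of 2114 after multiplying by random factors). For 88 of 89 small RNA genes the length equalled that in RefSeq. A gene's reads could be a multiple of these numbers. Intervals are exact (Clopper-Pearson) at 95%, and 0 reads allow up to 3.

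Genes averaging at least 1 TPM were fitted with limma 3.58.1 in R 4.3.3 on log2(TPM + 1), without covariates, with eBayes trend and Benjamini-Hochberg adjustment (adjusted p under 0.05). The fit was also run on simulated reads of genes averaging at least 1 TPM with a single common spread. That does not show its power for the lower members. Sums, shares and figures used Python 3.11.15. Members, gene lists and tests were chosen with earlier results of these data known, so summed members carry no p-value. Genes named are the members, up to 3 of highest mean TPM in each list, and the 5 of closest profile; others are said to be chosen after seeing values. A further group of genes, beyond the 6 roles given, is not reported here. Nuclear mRNA means 20159 protein-coding genes by RefSeq names. Alternatives were other scalings, pseudocounts of 0.1 and 10, filters at 0.1 and 5 TPM and none, voom, a replicate block and left-out libraries. The letters a to d were not taken as pairs, since correlations of same-letter deviations were below 0 for all 4.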

Additional observations from a re-analysis of the deposited data

Results flagged for a closer look

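Among 17 groups of 4 libraries looked at (each member and both sums, where values varied), 4 held a library whose gap to its nearest neighbour took nearly the whole range of its group. Chance gives about 1 in 20 for independent values, but these groups share libraries and genes, so nothing is read from the count. Exercised c was the high library for Tmsb10 (1.47 TPM), for Actg1 (0.785 TPM) and for the share of the members in nuclear mRNA (0.473%). Actg1 had reads in that library alone, which fixed its flag, and both genes are part of the share, so these flags are not separate. Sedentary d was the high library for the summed members (2.76 TPM). Without exercised c the share had a ratio of 2.20 in place of 2.49, and without sedentary d the sum had a ratio of 4.12 in place of 3.41.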

How the results depend on the processing

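The count of called genes was 0 by limma over all 8 libraries and 1 with a pseudocount of 10, and it ran from 0 to 1 when single libraries were left out (1 without sedentary a). The members called and the called genes of the actin list were 0 under each of the 37 alternatives run, but many of these tested few of them. Settings with the filter at 1 TPM tested 1 member, Tmsb4x, and 1 gene of the actin list. The filter at 5 TPM tested 0 of either, so its 0 was fixed in advance. Only the settings at 0.1 TPM or without a filter bear on the other members. The ratio of the summed members was 3.41 as deposited, 2.17 scaled without the 10 most abundant RNAs, 2.49 scaled over nuclear mRNA and 0.638 per TPM of the platelet list. It ran from 3.18 to 4.12 as single libraries were left out, and was 2.99 without sedentary b and exercised a together. Pfn1 had a ratio of 1.09 and Tpm1 of 1.06 without these 2 libraries. For Tmsb10 the log2 fold change at a filter of 0.1 TPM was 0.26, but -0.14 without the 10 RNAs and -0.57 over nuclear mRNA, its ratio ran from 0.285 to 8.87 and the ratio of its share of the thymosins from 0.148 to 1.73 as single libraries were left out. The cause of these shifts was not tested. The median log2 fold change of the 508 genes was 0.40 as deposited and -0.07 without the 10 RNAs. The fit with a replicate block called 0 genes, with correlations of same-letter deviations of -0.179, -0.005, -0.263 and -0.165. These do not show that libraries of 1 letter belong together. Settings that join the filter at 0.1 TPM with another choice, the platelet ratio and sums with other members were added after seeing the data. The share of Actb in both actins was not run, since no row of that name was used. Most member values rest on under 60 reads, so differences under about the width of the intervals given are not detectable at this depth.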
